A study of Drosophila melanogaster with 4 samples.

Results

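Binding of the RNA helicase Maleless (MLE) was examined at 4 genes that encode DNA-binding factors of the early Drosophila melanogaster embryo, Clamp, Trl, psq and zld, out of 17684 annotated genes on the X and the autosome arms. The genes were chosen by name, with earlier results of these data known. Each was taken with its RefSeq span and the 5 kb on either side. MLE had been profiled by CUT&RUN, in which an antibody directs a micrococcal nuclease to a chromatin protein and the released DNA is sequenced. There were 4 groups of whole male embryos. Embryos of MTD-GAL4>CLAMPRNAi mothers and embryos of MTD-GAL4>GFPRNAi mothers, called CLAMP RNAi and control here, were collected at 2-4 h and at 0-2 h. All 4 groups came from crosses with meiotic drive stocks that yield male embryos, and all carried the germline driver MTD-GAL4 in the mother. The driver acts in the mother, so the construct against CLAMP depletes the maternal supply, and the degree of depletion is not given in the sources used here. The titles place both ages before the maternal to zygotic transition, whereas the design text places 2-4 h after it.

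The products of these genes are DNA-binding proteins. CLAMP is a zinc finger protein that binds GA repeats and helps to bring the dosage compensation complex, of which MLE is the helicase, to the male X. GAGA factor, encoded by Trl, and Pipsqueak, encoded by psq, are BTB domain proteins that also bind GA-rich elements. Zelda, encoded by zld, is the zinc finger pioneer factor that opens chromatin for the first zygotic genes.

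Only 1 peak list stood for each group. No comparison of lists can therefore be checked against replicates, and no p-value is given. The 4 lists held from 15890 to 28246 peaks, and the CLAMP RNAi 2-4 h list was the shortest. Of its peaks, 36.6% had the lowest width in the lists, 200 bp, against 12.4% to 21.9% in the other lists. Its scores were also the most often tied, with 68.0% of peaks on the 10 commonest scores against 25.9% to 44.8% elsewhere. The part that these features of the list play in the differences at 2-4 h was not tested. The strength of a peak is given as a percentile, the share of peaks of its own list with the same or a lower score, because scores of different lists are not on a common scale. A percentile also depends on the length of its list and on ties, and a rank is counted from the strongest peak down.

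All 4 genes had MLE peaks in each list. Over the 4 windows there were 21 peaks in CLAMP RNAi 2-4 h, against 47 in control 2-4 h, a difference of -26. At 0-2 h there were 41 peaks in CLAMP RNAi and 41 in control, a difference of 0. Among all genes, a peak within 5 kb was present for 71.6% in CLAMP RNAi 2-4 h, against 87.4% in control 2-4 h, with 82% in CLAMP RNAi 0-2 h, against 89.5% in control 0-2 h, so a peak at each of these 4 genes is close to the background. The median number of peaks per gene was 4, 10, 8 and 9 over the 4 genes in that order of lists, and 1, 2, 2 and 2 over all genes, whose spans differ in length from those of the 4 genes.

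At 2-4 h the number of peaks was lower in CLAMP RNAi than in control at 4 of 4 genes, where 68.1% of all genes with a control peak did the same. At Clamp, Trl and psq, 3 of 4 genes, control 2-4 h had at least 2 times as many peaks, as it did at 52.9% of all genes. At 0-2 h it was lower in CLAMP RNAi at 1 of 4 genes, Trl, against 58.3% of all genes, and control had at least 2 times as many peaks at 0 of 4 genes, against 36.7%. It was higher at psq and zld, 2 of 4 genes, against 14.4% of all genes. Between ages, control 2-4 h had more peaks than control 0-2 h at psq and zld, 2 of 4 genes against 20.2% of all genes, and fewer at 0 of 4 genes against 48.4%. CLAMP RNAi 2-4 h had fewer peaks than CLAMP RNAi 0-2 h at 4 of 4 genes, against 61.4% of all genes. The median over all genes was 1 or 2 peaks per list, so these shares include many genes with few peaks. They are not a like background for psq, with 12 to 25 peaks, and the call at Clamp for 2-4 h rests on 1 peak against 2.

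**Figure D1:**
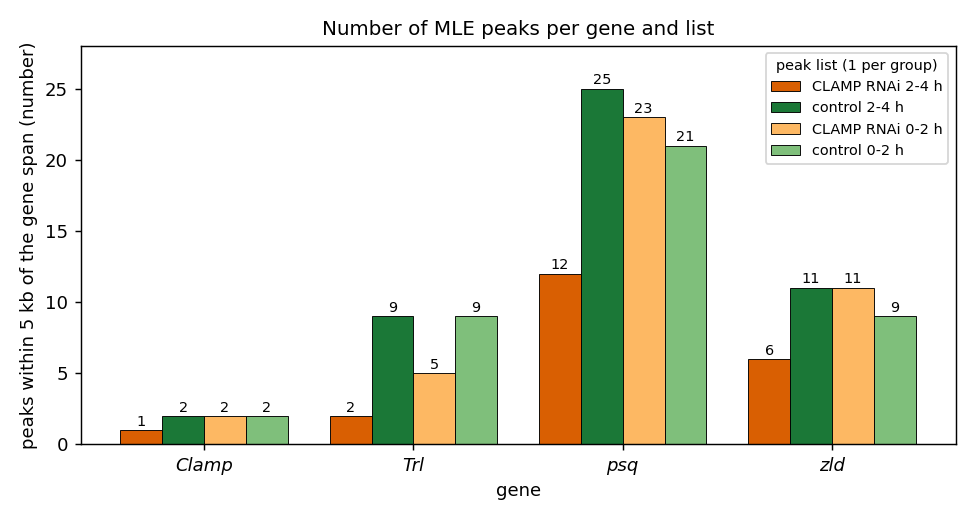
Number of MLE peaks within 5 kb of each gene (vertical axis) in each of the 4 lists, 1 bar per list with its number above it. The bar of CLAMP RNAi 2-4 h is the shortest at each gene, and at Trl CLAMP RNAi 0-2 h had 5 peaks, against 9 in both control lists.

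The genes also differed in the strength of their strongest peak. The strongest peaks of psq and zld stood at or above percentile 98 in each of the 4 lists, as did those of 1.87% of all genes. That share is over genes of all lengths, and psq has a window of 69.4 kb with 12 to 25 peaks. At a cut of 99 psq alone of the 4 genes would pass in each list, since zld stood at 98.7 in CLAMP RNAi 2-4 h. Clamp reached percentile 98 in control embryos of both ages and in CLAMP RNAi embryos of neither. At 0-2 h this rests on the cut, with 96.7 in CLAMP RNAi and 98.5 in control. With lists of equal length Clamp stood at 97.3 in control 0-2 h, below 98. A peak at or above percentile 98 was found within 5 kb of 3.18% of all genes in CLAMP RNAi 2-4 h, against 4.83% in control 2-4 h, with 4.38% in CLAMP RNAi 0-2 h, against 5.49% in control 0-2 h. Trl had no peak at or above percentile 90 in any list, whereas 13.6% of all genes had one in CLAMP RNAi 2-4 h, against 19.4% in control 2-4 h, with 17.5% in CLAMP RNAi 0-2 h, against 21.8% in control 0-2 h.

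**Figure D2:**
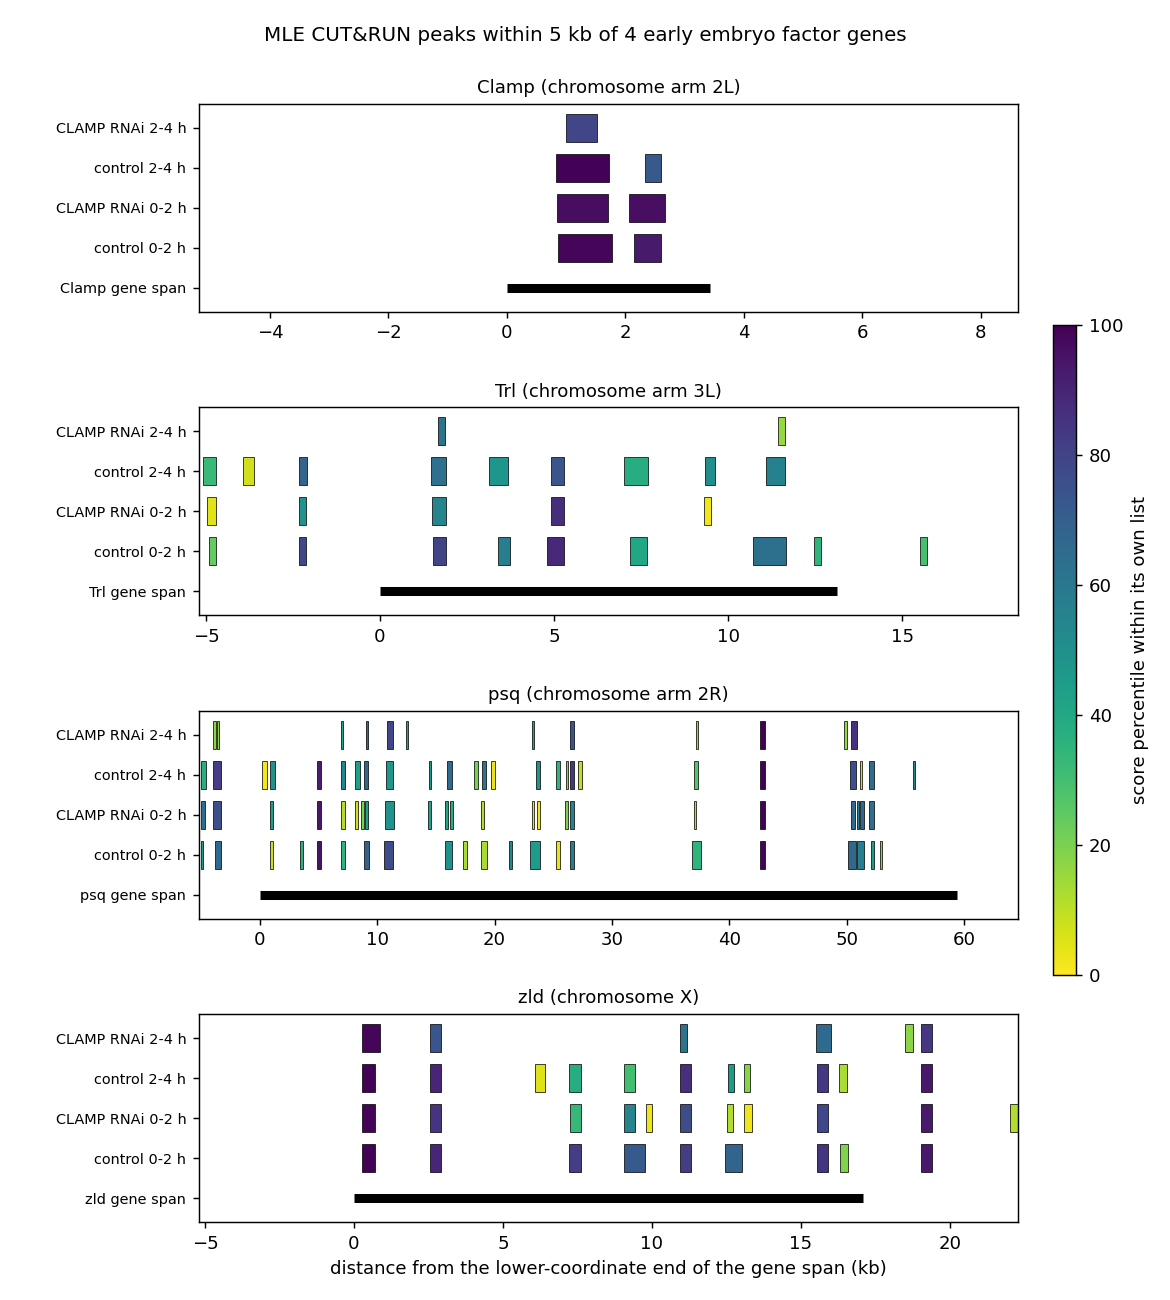
Peaks of each list (boxes, 1 row per list) drawn to scale along each gene, as distance in kb from the lower-coordinate end of the gene span (black bar), with the score percentile within its own list as colour. Dark boxes recur at the same place in each row near 0.569 kb of zld and 42.8 kb of psq, whereas the dark box of Clamp in 3 rows is paler in the top row, that of CLAMP RNAi 2-4 h.

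Clamp is the target of the RNAi construct. It lies on 2L at 22165720 to 22169143 (Release 6) and spans 3424 bp. Its lower 502 bases are shared with CG42748, and no Clamp peak reached into them. The peaks of the 4 lists fell into 2 sites, both inside the span, with none in the flanks. No Clamp midpoint lay within 500 bp of an end of the gene.

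The first Clamp site had its middle at 1.30 kb from the lower end. It stood at percentile 79.1 in CLAMP RNAi 2-4 h, against 99.3 in control 2-4 h. At 0-2 h it stood at percentile 96.7 in CLAMP RNAi and 98.5 in control. The CLAMP RNAi 2-4 h peak was 523 bp wide (22166717 to 22167239), against 889 bp for control 2-4 h (22166545 to 22167433). The CLAMP RNAi 0-2 h peak was 858 bp wide, against 921 bp for control 0-2 h. The site was thus wide and near the top in 3 lists, and narrower and lower in CLAMP RNAi 2-4 h. Such a drop was uncommon among strong sites. Of 251 control 2-4 h peaks at or above percentile 99, 12 (4.78%) had a CLAMP RNAi 2-4 h counterpart below percentile 90 or none. At 0-2 h this held for 0 of 283 control peaks.

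The second Clamp site had its middle at 2.37 kb and was absent from CLAMP RNAi 2-4 h. In control 2-4 h it was a peak of 271 bp at percentile 72.4 (22168049 to 22168319). In CLAMP RNAi 0-2 h it was 604 bp wide at percentile 96.3 (22167786 to 22168389), and in control 0-2 h 455 bp wide at percentile 93.2 (22167865 to 22168319). At 0-2 h the CLAMP RNAi minus control difference was 3.05 percentile points at the second site and -1.74 at the first. Clamp mRNA was not measured in these libraries.

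Trl, on 3L at 14747929 to 14761049 with a span of 13121 bp, had the lowest strongest peak of the 4 genes in each list. The median percentile of its peaks was not the lowest, at 51.3 in control 2-4 h, where psq had 49.2 and zld 45.0. CG42507 covers 10034 of these bases, so most peaks inside Trl lie in both genes. All Trl peaks in the lower flank lie in ome, the neighbouring gene. Trl had 2 peaks in CLAMP RNAi 2-4 h, against 9 in control 2-4 h. Embryos of 0-2 h had 5 Trl peaks with CLAMP RNAi, against 9 in control. In CLAMP RNAi 2-4 h both Trl peaks had the lowest width of 200 bp.

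The highest-ranking Trl site lay at 5.05 kb from the lower end. It was absent from CLAMP RNAi 2-4 h and stood at percentile 74.2 in control 2-4 h (14752839 to 14753221). At 0-2 h it stood at percentile 86.8 in CLAMP RNAi (14752839 to 14753219) and 88.5 in control (14752730 to 14753222). With lists of equal length this order turned, to 81.3 in CLAMP RNAi and 79.5 in control at 0-2 h. At 2-4 h the strongest Trl peak then stood at 61.9 in CLAMP RNAi and 59.3 in control. The site at 1.68 kb was the only one of Trl with a peak in each list. It stood at percentile 61.9 in CLAMP RNAi 2-4 h, against 63.1 in control 2-4 h, with 54.7 in CLAMP RNAi 0-2 h, against 80.0 in control 0-2 h. The small gap at 2-4 h rests on ties and list length. With ties at their middle rank the percentiles were 54.1 in CLAMP RNAi 2-4 h, against 62.6 in control 2-4 h, and the ranks were 6052 and 9230 in the same lists. In the lower flank, a site at -2.21 kb, below the gene, was absent from CLAMP RNAi 2-4 h and stood at percentile 68.2 in control 2-4 h, with 48.6 in CLAMP RNAi 0-2 h, against 78.2 in control 0-2 h. The sites at 3.44 kb and 7.35 kb were called at both ages in control embryos and at neither age in CLAMP RNAi embryos, at percentiles from 37.9 to 57.6.

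psq is the longest of the genes, at 59393 bp, and lies on 2R at 10557888 to 10617280. No other annotated gene overlaps its span. It had 12 peaks in CLAMP RNAi 2-4 h, against 25 in control 2-4 h. Embryos of 0-2 h had 23 psq peaks with CLAMP RNAi, against 21 in control. Per 10 kb of window this was 1.73 peaks in CLAMP RNAi 2-4 h, against 3.60 in control 2-4 h, with 3.31 in CLAMP RNAi 0-2 h, against 3.03 in control 0-2 h. The whole arm carried 0.999, 1.58, 1.39 and 1.85 peaks per 10 kb in the same lists, so psq was denser than its arm in each list, as was zld. Clamp was below its arm in each list, on 1 or 2 peaks, with 0.745 per 10 kb against 1.07 for 2L in CLAMP RNAi 2-4 h. It had 1.49 in each other list, against 1.74, 1.53 and 1.97 for 2L in control 2-4 h, CLAMP RNAi 0-2 h and control 0-2 h. Trl was below its arm in CLAMP RNAi 2-4 h only, with 0.865 against 1.09 for 3L. It was denser than 3L in control 2-4 h (3.89 against 1.73), CLAMP RNAi 0-2 h (2.16 against 1.53) and control 0-2 h (3.89 against 1.97).

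The strongest psq site lay at 42.8 kb from the lower end, deep inside the gene. Its percentile was 99.7 in CLAMP RNAi 2-4 h, where it ranked 55 of 15890, and 99.3 in control 2-4 h, where it ranked 185 of 25026. At 0-2 h it was 99.3 in CLAMP RNAi (rank 162) and 99.2 in control (rank 235). The peak spanned 10600537 to 10600909 in CLAMP RNAi 2-4 h and 10600537 to 10600915 in both control lists, and its 4 starts lay within 1 base of each other. Starts this close were common among strong sites. Of 172 regions at or above percentile 98 with 1 peak in each list, 74.4% had their 4 starts within 5 bases, against 29.7% of all 7631 regions with 1 peak in each list.

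A second strong psq site, at 5.04 kb, was missing from CLAMP RNAi 2-4 h. It spanned 10562734 to 10563115 both in control 2-4 h and at 0-2 h in CLAMP RNAi, and 10562734 to 10563117 in control 0-2 h, the same start in each. It stood at percentile 92.6 in control 2-4 h, with 93.8 in CLAMP RNAi 0-2 h, against 95.3 in control 0-2 h. Genome-wide, 61 of 1887 regions at or above percentile 90 in these 3 lists (3.23%) had no CLAMP RNAi 2-4 h peak. The 2 leading sites of psq, both inside the gene, thus differed in whether CLAMP RNAi 2-4 h held a peak there.

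The remaining psq sites were weaker. A site centred at 50.8 kb held a peak in each list, at percentile 85.7 in CLAMP RNAi 2-4 h, against 75.2 in control 2-4 h, with 67.3 in CLAMP RNAi 0-2 h, against 66.7 in control 0-2 h. This site joins 8 peaks, and each percentile is that of the strongest in its list. The CLAMP RNAi 0-2 h value comes from 10609022 to 10609360, apart from the strongest peaks of the other lists. The CLAMP RNAi 0-2 h peak that overlaps those (10608257 to 10608640) stood at 65.7, below control 0-2 h. The site at 26.6 kb stood at percentile 73.4 in CLAMP RNAi 2-4 h, against 83.6 in control 2-4 h, with 54.7 in CLAMP RNAi 0-2 h, against 57.6 in control 0-2 h. At 11.01 kb the percentile was 79.1 in CLAMP RNAi 2-4 h, against 47.2 in control 2-4 h, with 48.8 in CLAMP RNAi 0-2 h, against 77.2 in control 0-2 h. These 3 sites had a peak in each list but no common order of the lists. Of the 9 psq sites with a peak in each list, those at 11.01, 42.8 and 50.8 kb stood higher in CLAMP RNAi 2-4 h than in control 2-4 h. The rest stood lower. The widest gap was in the flank at -3.62 kb, with 17.5 in CLAMP RNAi 2-4 h, against 82.0 in control 2-4 h. Among these lower sites, the order held by rank at -3.62 kb and 26.6 kb, and turned at the others. Of the 30 psq sites, 11 were called in a single list, 5 of them in control 2-4 h, 4 in control 0-2 h, 2 in CLAMP RNAi 2-4 h and 0 in CLAMP RNAi 0-2 h. A single list thus held 36.7% of psq sites, against 44.7% of the sites of the genome. Control 2-4 h alone held 16.7% of psq sites, against 8.96% genome-wide, control 0-2 h alone 13.3%, against 18.2%, and CLAMP RNAi 2-4 h alone 6.67%, against 10.03%. CLAMP RNAi 0-2 h alone held 7.51% of the sites of the genome.

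zld is the only one of the genes on the X, at 19766465 to 19783548, with a span of 17084 bp that no other annotated gene overlaps. It had 6 peaks in CLAMP RNAi 2-4 h, against 11 in control 2-4 h. Embryos of 0-2 h had 11 zld peaks with CLAMP RNAi, against 9 in control. Per 10 kb of window this was 2.22, 4.06, 4.06 and 3.32 peaks in CLAMP RNAi 2-4 h, control 2-4 h, CLAMP RNAi 0-2 h and control 0-2 h. The X as a whole carried 1.77, 2.61, 2.48 and 2.83 in the same lists.

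The strongest zld site lay at the lower end of the gene, with its middle at 0.569 kb. Its percentile was 98.7 in CLAMP RNAi 2-4 h, against 99.3 in control 2-4 h. The 0-2 h lists gave 99.1 in CLAMP RNAi and 99.3 in control. The peak spanned 19766740 to 19767332 in CLAMP RNAi 2-4 h, 593 bp, and 19766737 to 19767161 in control 2-4 h, 425 bp. At 0-2 h it spanned 19766736 to 19767163, 428 bp, in CLAMP RNAi and control alike. Here the CLAMP RNAi 2-4 h peak was the widest of the 4, the reverse of the Clamp site. The gene table used here gives no strand, so whether this end is the promoter was not analysed here.

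A chain of weaker zld sites recurred in each list. The site at 2.75 kb stood at percentile 74.1 in CLAMP RNAi 2-4 h, against 89.5 in control 2-4 h, with 85.0 in CLAMP RNAi 0-2 h, against 89.4 in control 0-2 h. The site at 11.1 kb stood at 61.9, 86.1, 77.1 and 82.3 in the same lists, and the site at 15.8 kb at 65.4, 83.8, 78.6 and 84.7. In the flank beyond the upper end, at 19.2 kb, a site stood at percentile 84.1 in CLAMP RNAi 2-4 h, against 93.6 in control 2-4 h, with 93.2 in CLAMP RNAi 0-2 h, against 93.5 in control 0-2 h. The CLAMP RNAi percentile was the lower of the pair at each of these 4 sites, as it was at 70.9% of the sites of the genome with a peak in each list at 2-4 h and at 66.6% at 0-2 h. The CLAMP RNAi minus control difference ranged from -24.2 to -9.46 points at 2-4 h and from -6.04 to -0.322 points at 0-2 h. At 0-2 h the site at 19.2 kb ranked 1532 in CLAMP RNAi and 1833 in control, so by rank its order turned, and the order of the other 3 sites did not. The sites at 7.42 kb, 9.42 kb and 12.7 kb were called in the 3 other lists and not in CLAMP RNAi 2-4 h, and none of them reached percentile 90. They stood at percentiles 37.9, 30.1 and 45.0 in control 2-4 h, at 33.0, 54.7 and 11.7 in CLAMP RNAi 0-2 h and at 81.8, 72.1 and 68.3 in control 0-2 h.

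**Figure D3:**
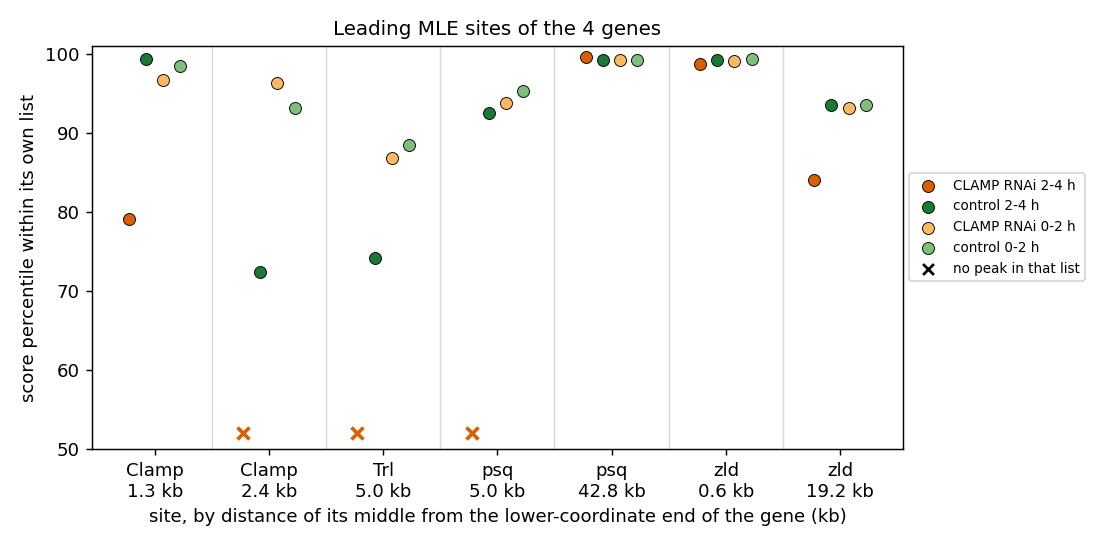
Score percentile within its own list (vertical axis) of the 6 sites at or above percentile 90 in at least 1 list and of the highest-ranking Trl site, with 1 point per list and crosses near the base where a list had no peak. CLAMP RNAi 2-4 h stands within 1 point of the other lists at 42.8 kb of psq and 0.569 kb of zld, lower at 1.30 kb of Clamp and 19.2 kb of zld, and has no peak at the other 3 sites.

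Joining overlapping peaks of the 4 lists gave 57 sites over the 4 windows. A peak of each list was present at 16 of them (28.1%), against 19.8% of the 42156 sites of the genome. Only 2 of the 57, the leading sites of psq and zld, stood at or above percentile 98 in each list, and 0.41% of the sites of the genome did so. A single list held 17 of the 57 (29.8%), against 44.7% genome-wide. Sites of a single list were weak, with a median percentile of 17.5 and none above 53.9. Sites of each list had a median of 84.1 for their highest percentile, with a lowest value of 35.1. That highest value is taken over the 4 lists, which raises it, so these medians are not on equal terms. Control embryos of both ages shared 4 sites that neither CLAMP RNAi list held (7.02%, against 6.38% genome-wide) and the reverse held for 0 sites (0.88% genome-wide). Of the 29 sites present in the 3 other lists, 13 (44.8%) lacked a CLAMP RNAi 2-4 h peak, close to the 43.3% of the genome. Without the CLAMP RNAi 2-4 h list, 30 of 55 sites (54.5%) were common to the remaining lists, against 38.8% of 38029 sites genome-wide.

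Counted as single peaks, 16 of the 47 control 2-4 h peaks at the 4 genes were found in CLAMP RNAi 2-4 h, or 34.0% (95% exact interval 20.9% to 49.3%), against 40.6% of the whole list. At 0-2 h, 30 of 41 control peaks were found in CLAMP RNAi, or 73.2% (57.1% to 85.8%), against 58.1% of the whole list. Both intervals cover counting error over peaks only, and both include the share of the whole list. Trl had the lowest shares at both ages, with 2 of 9 at 2-4 h and 4 of 9 at 0-2 h. zld had 5 of 11 at 2-4 h and 8 of 9 at 0-2 h, and psq had 8 of 25 and 16 of 21. In the other direction, 17 of 21 CLAMP RNAi 2-4 h peaks were found in control 2-4 h (81.0%, against 65% of the list), and 35 of 41 CLAMP RNAi 0-2 h peaks in control 0-2 h (85.4%, against 74.4%). Between the control lists, 35 of 47 peaks of 2-4 h were found at 0-2 h (74.5%, against 74%), and 35 of 41 peaks of 0-2 h were found at 2-4 h (85.4%, 95% exact interval 70.8% to 94.4%, against 64.8%). This last interval lay above the share of the whole list. It treats peaks as independent, although 21 of the 41 lie at psq, and it was not corrected for the number of comparisons. Without replicate lists, no excess at these genes is read from it. Between the CLAMP RNAi lists, 17 of 21 peaks of 2-4 h were found at 0-2 h (81.0%, against 60.5%), and 17 of 41 peaks of 0-2 h were found at 2-4 h (41.5%, against 42.5%).

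Most peaks were counted inside a gene span, and few midpoints lay near an end. The span is the larger part of the window at Trl, psq and zld and the smaller part at Clamp. At psq it is 59393 bp of a 69.4 kb window. No share over all genes was computed, so no trait of these genes is read from these counts. Inside a span lay 17 of 21 peaks in CLAMP RNAi 2-4 h, against 41 of 47 in control 2-4 h, with 35 of 41 in CLAMP RNAi 0-2 h, against 35 of 41 in control 0-2 h. Midpoints within 500 bp of either end of the gene numbered 0, 2, 1 and 1 in these lists. The median width at the 4 genes was 221 bp for CLAMP RNAi 2-4 h and 378 bp for control 2-4 h, and 365 bp for CLAMP RNAi 0-2 h and 379 bp for control 0-2 h. The whole lists had medians of 245, 375, 366 and 364 bp. The limit of 5 kb split 1 site, beyond the upper end of zld. Its CLAMP RNAi 0-2 h peak began 4922 bp from the gene and was counted, and its control 0-2 h peak began 5072 bp away and was not.

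Genes of the same pathway were compared through the strongest peak within 5 kb. The first set held 11 genes of GAGA factor partners, among them subunits of the nucleosome remodeller NURF and of the histone chaperone FACT. At 2-4 h 10 of the 11 had a peak in CLAMP RNAi, against 8 in control. At 0-2 h 9 had one in CLAMP RNAi, against 10 in control. Among all genes 71.6% and 87.4% had a peak in CLAMP RNAi and control at 2-4 h, and 82% and 89.5% at 0-2 h. A peak at or above percentile 90 was present at 2 in CLAMP RNAi and 2 in control at 2-4 h, and at 1 in CLAMP RNAi and 3 in control at 0-2 h. The shares of all genes were 13.6% and 19.4% at 2-4 h, and 17.5% and 21.8% at 0-2 h. With 11 genes, no trait of the set is read from these counts. Nurf-38, the inorganic pyrophosphatase subunit of NURF, was the strongest, at percentile 97.0 in CLAMP RNAi 2-4 h, against 98.6 in control 2-4 h, with 99.1 in CLAMP RNAi 0-2 h, against 98.8 in control 0-2 h. Iswi, the NURF ATPase, had 1 peak, in CLAMP RNAi 2-4 h at percentile 15.8. dre4, which encodes the Spt16 subunit of FACT, stood at 41.4 in CLAMP RNAi 2-4 h, against 91.0 in control 2-4 h, with 88.1 in CLAMP RNAi 0-2 h, against 89.4 in control 0-2 h.

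The second set held 8 other early embryo factors. Each list held a peak at 6 of them, though not at the same 6, and opa, grh and D had a peak at or above percentile 90 in each list. Among all genes, 71.6% to 89.5% had a peak, depending on the list, and 13.6% to 21.8% had one at or above percentile 90. With 8 genes, no trait of this set is read from these counts either. opa, which encodes the later-acting pioneer factor Odd-paired, stood at percentile 99.1 in CLAMP RNAi 2-4 h, against 99.7 in control 2-4 h, with 99.8 in CLAMP RNAi 0-2 h, against 99.6 in control 0-2 h. grh, the gene of the epithelial pioneer factor Grainyhead, stood at 98.04, 99.7, 99.7 and 99.8 in these lists, and D, the gene of the Sox factor Dichaete, at 92.3, 97.3, 97.2 and 97.6. smg, the gene of the maternal RNA decay factor Smaug, had 1 peak at 2-4 h, at percentile 41.4 in CLAMP RNAi and 18.0 in control, and none at 0-2 h. opa, grh, psq and zld were thus alike in holding a peak at or above percentile 98 in each list, as did 1.87% of all genes. At a cut of 99 grh and zld would not pass in CLAMP RNAi 2-4 h.

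**Figure D4:**
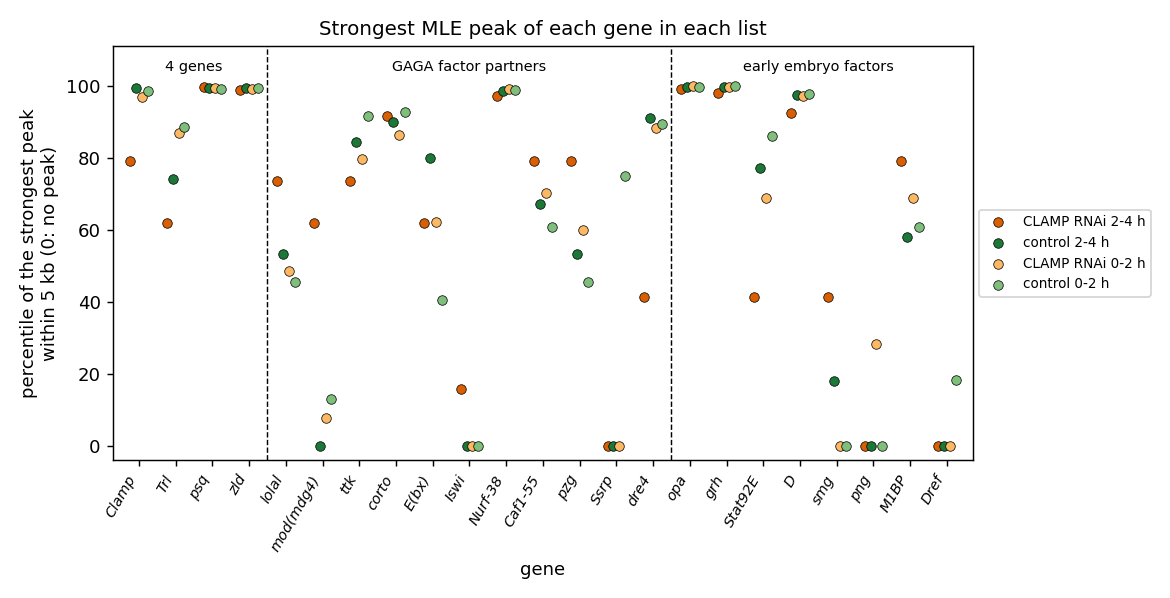
Percentile of the strongest MLE peak within 5 kb (vertical axis, 0 where a list had no peak) for Clamp, Trl, psq and zld, the 11 GAGA factor partners and the 8 early embryo factors, with 1 point per list. Points of the 4 lists lie together near the top for psq, zld, Nurf-38, opa and grh, and are spread out for most other genes.

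The genes most like each of the 4 were those with the smallest summed difference in strongest percentile over the 4 lists. For Clamp they were IA-2 and gNacalpha on 2L, with a summed difference of 1.68 points and the same values in both genes, at 79.1 in CLAMP RNAi 2-4 h, against 98.8 in control 2-4 h, with 96.9 in CLAMP RNAi 0-2 h, against 97.5 in control 0-2 h. For Trl they were AIMP2 and CG7656 on 3L, at 4.26 points. For psq they were CG4935 and EndoGI on 2L, at 0.497 points. For zld they were sqd on 3R, at 0.255 points, and disco-r on the X, at 0.359 points.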

How the data were processed

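Peak lists of MLE CUT&RUN in whole male embryos were analysed, 1 list for each maternal genotype and age. The deposited lists give sequence, start, end, peak name and, per peak, the authors' score, used only to rank peaks within a list. The submitters' processing notes name FastQC, Trim Galore, BWA, Bowtie2, SAMtools, Picard 2.20.2 and MACS2 with build dm6. Calling settings, any control library and the handling of the 2 replicates per group in the design text are not given in the sources used here. The depth of each list is unknown, and the design text gives a range of reads per sample without assigning it to a list. Repeats of an interval were collapsed, keeping the highest score, and peaks on the X, 2L, 2R, 3L, 3R and 4 were ranked.

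Gene spans came from RefSeq genes of Release 6, which is dm6. A peak counted for a gene, or as found in another list, when at least 1 base was shared. Overlap functions were tested on simulated data. Python 3.11.15 with pandas 2.3.3 and scipy 1.17.1 was used, with exact Clopper-Pearson intervals. The members and gene sets were chosen with earlier results of these data known. Named genes were the 4 members, both pathway sets and the 2 most alike genes per member, leaving out overlapping windows. Alternatives were the window, the overlap, repeats, list length, a score threshold and the ranking. Sequences, strand, exons and planned motif searches were not analysed here.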

Additional observations from a re-analysis of the deposited data

Results flagged for a closer look

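The CLAMP RNAi minus control difference in the number of peaks pointed opposite ways at the 2 ages for psq and zld, and the difference between ages was not tested. For psq it was -13 at 2-4 h, against 2 at 0-2 h. For zld it was -5 at 2-4 h, against 2 at 0-2 h. With lists cut to 15890 peaks each, psq had 15 peaks in CLAMP RNAi 0-2 h, against 12 in control 0-2 h. zld then had 7 in CLAMP RNAi 0-2 h, against 8 in control 0-2 h, so its order turned. In the same cut lists zld had 6 peaks in CLAMP RNAi 2-4 h, against 7 in control 2-4 h. The zld difference thus no longer pointed opposite ways at the 2 ages. psq had 12 peaks in CLAMP RNAi 2-4 h, against 17 in control 2-4 h, in these cut lists. With repeats kept the order of psq turned, to 25 peaks in CLAMP RNAi 0-2 h, against 27 in control 0-2 h. The order of zld then held, with 12 against 10. Peaks of CLAMP RNAi 0-2 h covered 10.5% of the psq window, against 13.1% for control 0-2 h. For zld these shares were 12.6% and 14.1%. The higher peak numbers of psq and zld at 0-2 h thus depend on how peaks are counted, as does the size of their differences at 2-4 h. The CLAMP RNAi 2-4 h list was the shortest and had the narrowest peaks, and the part this plays was not tested.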

How the results depend on the processing

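Peak numbers over the 4 genes stayed within 1.5 times in 22 of 28 alternatives. A score of at least 50 left 6 peaks in CLAMP RNAi 2-4 h, against 31 in control 2-4 h, with 23 in CLAMP RNAi 0-2 h, against 24 in control 0-2 h. Scores of different lists are not on a common scale, so this cut removes a different share of each list. A score of 50 stood at a higher percentile in CLAMP RNAi 2-4 h than in control 2-4 h. The cut alone therefore lowers the CLAMP RNAi 2-4 h number more, and no difference between lists is read from these numbers. Lists cut to the length of the shortest left 27 peaks in CLAMP RNAi 0-2 h, against 27 in control 0-2 h, and a CLAMP RNAi minus control difference of -12 at 2-4 h. The difference at 0-2 h moved to -1 with midpoints inside the window, -5 with repeats kept and -1 with a score of at least 50. The value for the score cut has the limit given above. Sites common to the lists numbered 30 without CLAMP RNAi 2-4 h, an alternative chosen after seeing the data, since 1 list fewer had to hold a peak. Strongest percentiles were counted as moved, beyond counting error over peaks, in 17 of 128 alternatives. That error does not measure variation between samples, and cutting a list moves percentiles by itself. The largest move was at Trl in control 2-4 h, to 59.3 in the shortened list. In shortened lists the order of CLAMP RNAi and control turned for Trl at both ages. No paired analysis was possible because each group had 1 list. Unknown depth limits all differences between lists.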
